A study of Homo sapiens with 6 samples.

Results

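The HNRNP genes encode heterogeneous nuclear ribonucleoproteins and the SRSF genes encode serine/arginine-rich splicing factors, the protein families that compete on pre-mRNA to repress or promote the use of exons. The 31 genes described here are the 20 HNRNP and 11 SRSF genes of a named list. Each was matched by symbol to the 61280 gene rows of the deposited table, and each symbol had 1 row. The cells were MDA-MB-231, a human triple-negative breast cancer line with mutant p53. The irradiated group (3 libraries) received 20 Gy of X-rays and was harvested after 24 h of culture, and the control group (3 libraries) was not treated. Both were grown in DMEM with serum. How long the controls were cultured is not given, so culture time and irradiation cannot be told apart. Whether the numbered replicates were separate cultures is not stated, so the p-values cover only library-to-library spread, which may be technical.

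Proteins of the HNRNP family coat nascent transcripts and act in splicing, packaging, export, stability and translation of RNA. Many of them silence exons by binding short motifs through RNA recognition or KH domains. SRSF proteins carry RNA recognition motifs and an arginine/serine-rich tail, bind exonic enhancers and recruit the spliceosome when phosphorylated. Members of both families limit their own mRNA by splicing it into forms that are degraded, and a gene-level value adds such forms to the coding ones.

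The HNRNP genes were lower after irradiation across most of the family, while 2 of the SRSF genes were. Of 20 HNRNP genes, all tested, 16 fell and none rose. The call is a limma test of log2(TPM + 1) with a Benjamini-Hochberg adjusted p below 0.05 over all 14621 tested genes. Of 11 SRSF genes, likewise all tested, 2 fell and none rose. Over all tested genes, 4.07% were lower and 6.53% higher, 10.6% in all. At an unadjusted p under 0.05, 19 HNRNP and 5 SRSF genes were lower, and again none was higher in either family. That cut is a loose one, passed by at least 4070 of all 14621 tested genes, counting both directions. The median log2 change was -0.29 over the HNRNP genes and -0.17 over the SRSF genes, against 0.03 over all tested genes. The 3 irradiated values lay below the 3 control values, with no overlap, for 19 HNRNP and 6 SRSF genes, where 14.5% of all tested genes lay lower without overlap, 20.4% lay higher and 34.9% did either. That the families differ from each other was not tested.

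**Figure D1:**
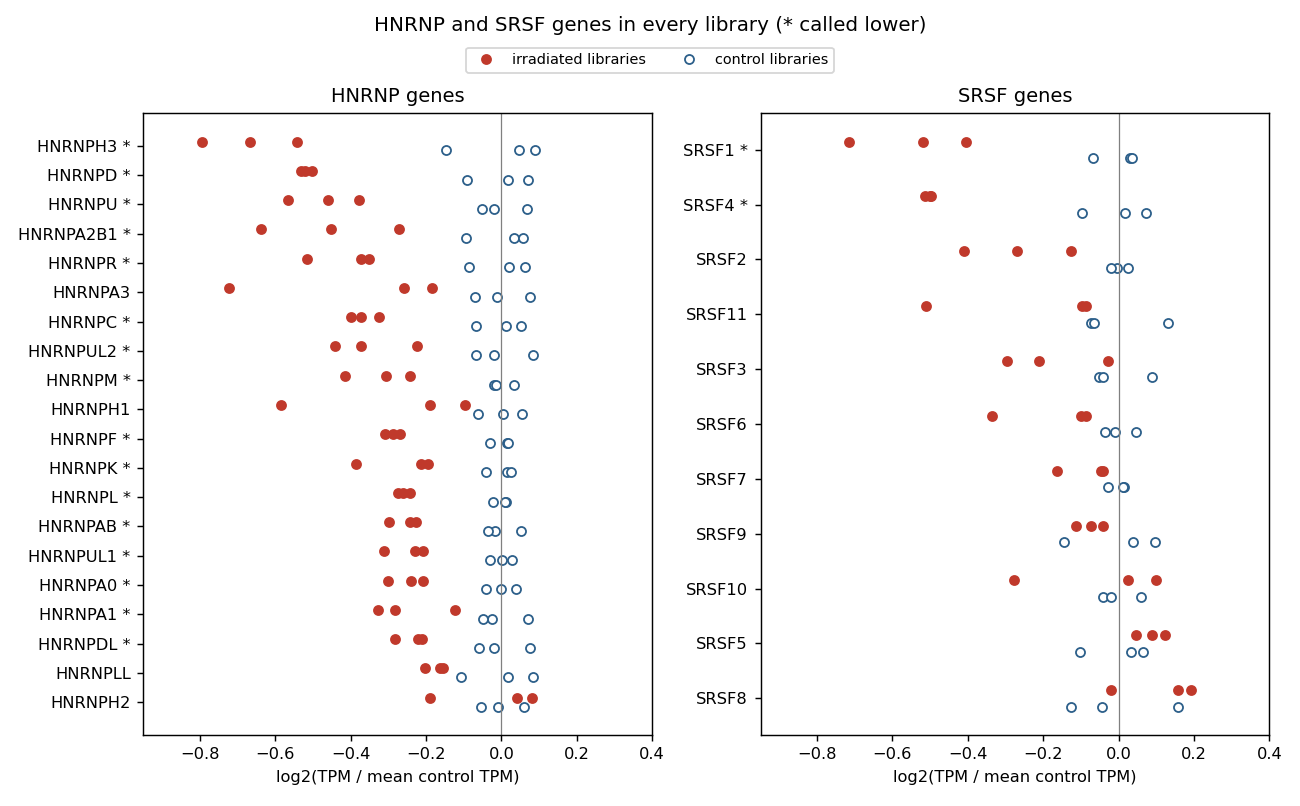
Each row is 1 gene and each point 1 library, on the x axis as log2 of its TPM over the mean TPM of the 3 control libraries; filled points are irradiated and open points control libraries, and an asterisk marks a gene called lower. For 19 of 20 HNRNP genes the filled points all lie left of the open ones, as they do for 6 of 11 SRSF genes.

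The number of called HNRNP genes fell from 16 whichever library was left out, and furthest for control replicates 1 and 2. It was 7 in each of these 2 fits, in which the count over all genes dropped to 356 and 306. The HNRNP median log2 change stayed at -0.283 in both, against -0.288 as reported. Dropping control replicate 3 left 12 HNRNP calls, and dropping irradiated replicates 1 and 3 in turn left 11 and 12. There were 13 without irradiated replicate 2, which stood furthest from the other irradiated libraries on the second principal component (25.4, against -23.9 and -6.55). Fits with fewer libraries have less power, and its part in these counts was not tested. HNRNPC, HNRNPD, HNRNPF, HNRNPH3, HNRNPL, HNRNPU and SRSF4 were called in the fit reported and in each of 16 alternatives. Without a filter on low values, HNRNPA0, HNRNPA1, HNRNPA2B1, HNRNPDL, HNRNPK and HNRNPUL2 lost their calls, and without the eBayes trend so did these and HNRNPAB and HNRNPUL1. The SRSF count was 1 without control replicate 2 and 4 after median-ratio scaling. The SRSF median was -0.09 without irradiated replicate 2. Irradiated replicate 2 was the lowest of the irradiated libraries for 13 of 20 HNRNP and 9 of 11 SRSF genes, and for 54.7% of all tested genes.

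Pearson correlations between libraries were 0.980 to 0.988 within and 0.976 to 0.982 between groups, and 14592 to 14889 genes reached 1 TPM in irradiated libraries, against 14248 to 14417 in control libraries. Of 4 markers of this line, the mesenchymal gene VIM (log2 change -0.31, adjusted p = 0.00479), CAV1 (-0.48, adjusted p = 0.00466) and AXL (-0.36, adjusted p = 0.00921) also fell, and CD44 did not pass (0.06, adjusted p = 0.777). Their summed level was 2058 to 2150.1 TPM in irradiated and 2542 to 2604 TPM in control libraries, 18.1% lower in the mean, beside 20.4% for the HNRNP genes. Most of this marker sum was VIM, with a mean of 1589 TPM in irradiated and 1967 TPM in control libraries. The hormone receptor gene PGR was listed at 0 in every library, and ESR1 and the epithelial cadherin gene CDH1 were at or under 0.40 TPM. The other luminal and receptor markers were present and not called, KRT8 at 414 to 479.5 TPM, KRT18 at 340.3 to 375 TPM, ERBB2 at 20.9 to 27.9 TPM and EPCAM at 8.32 to 11.3 TPM over the 6 libraries. Of 7 markers of leukocytes, endothelium and fibroblasts, 4 were tested and 1, CD68, was called, higher. Their summed level was 111 to 151 TPM in irradiated and 73.0 to 80.4 TPM in control libraries. Most of it was CD68, at 92.0 to 97.3 TPM in irradiated and 59.0 to 67.05 TPM in control libraries. The leukocyte gene PTPRC stood at 40.4 TPM in irradiated replicate 1 and at most at 0.45 TPM in the other libraries, while CD3E was at or under 0.05 TPM throughout. Without irradiated replicate 1, 11 HNRNP genes were called lower and their median log2 change was -0.28; the part of these marker levels, of the line or of other cell types, in the results was not tested.

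In the A/B group, whose members repress exons and bind AU-rich or UAGG-like motifs, 3 of 4 genes fell. HNRNPA2B1, which also acts in RNA transport, had 568, 647 and 732 TPM in irradiated libraries, against 905, 919 and 828 TPM in control libraries. The groups did not overlap, and the log2 change was -0.45 ± 0.09 (SE; n = 3 per group here and below; limma adjusted p = 0.0256). HNRNPA1, the most abundant of the 31 genes and a classical antagonist of SRSF1, had 1291, 1252 and 1443 TPM in irradiated libraries, against 1544, 1649 and 1519 TPM in control libraries. Irradiated replicate 3 came closest to the controls, and the change was smaller, -0.24 ± 0.06 (adjusted p = 0.0475). HNRNPA0, which binds AU-rich elements of inflammatory mRNAs, had 38.9, 37.3 and 39.8 TPM in irradiated libraries, against 44.7, 45.95 and 47.2 TPM in control libraries. This change was -0.24 ± 0.05 (adjusted p = 0.0315), without overlap. HNRNPA3 did not pass the test, with a log2 change of -0.39 (95% interval -0.69 to -0.08, adjusted p = 0.105). Its irradiated values lay below all control values, with 163 TPM in irradiated replicate 1 and 225 and 237 TPM in replicates 2 and 3. Without irradiated replicate 1 its change was -0.22. Leaving out a single library ended the call of HNRNPA1 for every library but irradiated replicate 3, and that of HNRNPA0 for every library but irradiated replicate 2. With GC and length trends removed, HNRNPA0 changed by -0.16 and was not called (limma adjusted p = 0.239). The call of HNRNPA2B1 ended when control replicate 1, control replicate 2 or irradiated replicate 2 was left out.

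All 3 genes of the D group fell. HNRNPD, or AUF1, a factor of AU-rich mRNA decay (ENSG00000138668; chromosome 4, 82352498 to 82374503, minus strand, hg38), had 298, 294 and 292 TPM in irradiated libraries, against 443, 427 and 396 TPM in control libraries. The irradiated values lay within a few TPM of each other and far under the controls (log2 change -0.52 ± 0.05, adjusted p = 0.00351). HNRNPDL, its close relative, had 267, 254 and 265 TPM in irradiated libraries, against 326, 305 and 297 TPM in control libraries. The fall was -0.24 ± 0.05 (adjusted p = 0.0245), without overlap. HNRNPAB, an RNA- and DNA-binding relative, had 360.2, 356 and 343 TPM in irradiated libraries, against 416, 411 and 436 TPM in control libraries. It too fell without overlap (-0.25 ± 0.04, adjusted p = 0.0134). The call of HNRNPDL ended when control replicate 1, control replicate 2, irradiated replicate 1 or irradiated replicate 3 was left out, and that of HNRNPAB when control replicate 1 or irradiated replicate 3 was.

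The F/H group, which binds runs of guanines, held the largest fall and the smallest change of the HNRNP family. HNRNPH3 (ENSG00000096746; chromosome 10, 68331174 to 68343191, plus strand) had 152, 166 and 181 TPM in irradiated libraries, against 273, 281 and 238 TPM in control libraries. With no overlap, its log2 change was -0.66 ± 0.08 (adjusted p = 0.00705), a mean TPM 0.631 times that of the controls. HNRNPF had 136, 138 and 139.95 TPM in irradiated libraries, against 170.1, 165 and 170.5 TPM in control libraries. Both groups were tight and well apart (-0.29 ± 0.04, adjusted p = 0.00828). HNRNPH1, the most abundant of the group, had 800.8, 608 and 853 TPM in irradiated libraries, against 915, 947 and 875 TPM in control libraries. Irradiated replicate 2 was far below the other irradiated libraries, and the change did not pass (-0.29, 95% interval -0.56 to -0.02, adjusted p = 0.158; -0.14 without that library). HNRNPH2, the X-linked relative of HNRNPH1, had 63.4, 54.1 and 65.2 TPM in irradiated libraries, against 61.3, 59.4 and 64.25 TPM in control libraries. The groups overlapped, and the interval of its log2 change was -0.20 to 0.16 (adjusted p = 0.883). The table also lists RPL36A-HNRNPH2, a readthrough that overlaps HNRNPH2 on the same strand, at 202 to 287 TPM in irradiated and 333 to 502 TPM in control libraries, so reads of HNRNPH2 may be split between these rows.

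The U group comprises HNRNPU, the scaffold attachment factor that binds RNA and chromatin, and 2 relatives. HNRNPU had 302, 281 and 319.9 TPM in irradiated libraries, against 410.2, 436 and 401 TPM in control libraries. Every irradiated library lay under every control library (log2 change -0.47 ± 0.06, adjusted p = 0.00692). HNRNPUL1 had 202, 191 and 205 TPM in irradiated libraries, against 238, 242 and 232 TPM in control libraries. HNRNPUL2 had 30.2, 28.8 and 33.5 TPM in irradiated libraries, against 37.3, 41.45 and 38.6 TPM in control libraries. Both fell without overlap, HNRNPUL1 by 0.25 on the log2 scale (SE 0.04, adjusted p = 0.0167) and HNRNPUL2 by 0.33 (SE 0.07, adjusted p = 0.0336). Reads of HNRNPUL2 may be shared with the readthrough row HNRNPUL2-BSCL2, which held 17.3 to 20.15 TPM in irradiated and 20.65 to 22.0 TPM in control libraries. The call of HNRNPUL1 ended when control replicate 1 or control replicate 2 was left out, and that of HNRNPUL2 when any library but irradiated replicate 3 was.

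The remaining HNRNP genes bind RNA through other domains and motifs. HNRNPC, which packages pre-mRNA and binds uridine tracts (ENSG00000092199; chromosome 14, 21209136 to 21269494, minus strand), had 939, 923 and 972 TPM in irradiated libraries, against 1227, 1262 and 1162 TPM in control libraries. The groups lay well apart, at a log2 change of -0.36 ± 0.04 (adjusted p = 0.00627). HNRNPR, a relative of SYNCRIP, had 139.7, 125 and 138 TPM in irradiated libraries, against 186, 181 and 168 TPM in control libraries. Its fall was -0.41 ± 0.06 (adjusted p = 0.0112), without overlap. HNRNPM, which binds GU-rich sites, had 309, 286 and 323 TPM in irradiated libraries, against 391, 376 and 378 TPM in control libraries. It fell by 0.32 on the log2 scale (SE 0.05, adjusted p = 0.0134). HNRNPK, which binds cytosine-rich sequence through KH domains, had 526, 467 and 532 TPM in irradiated libraries, against 615, 620.8 and 592 TPM in control libraries. Irradiated replicate 2 was the lowest, and the change was -0.26 ± 0.06 (adjusted p = 0.0296). HNRNPL, which binds CA repeats, had 239, 241 and 244 TPM in irradiated libraries, against 291, 285 and 290.5 TPM in control libraries. The gap was wide relative to the spread (-0.26 ± 0.03, adjusted p = 0.00828). Its relative HNRNPLL, known for regulating CD45 splicing in lymphocytes, did not pass (-0.16, adjusted p = 0.176), although its irradiated values lay below the controls. The call of HNRNPK ended when any library but irradiated replicate 2 was left out, that of HNRNPM when control replicate 1 or control replicate 2 was, and that of HNRNPR when control replicate 2 was.

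Among the SRSF genes, SRSF1 and SRSF4 fell. SRSF1, the founding member that promotes exon inclusion and has roles in growth control (ENSG00000136450; chromosome 17, 58003360 to 58007346, minus strand), had 125, 109 and 135 TPM in irradiated libraries, against 183, 184 and 171 TPM in control libraries. The groups were separate (log2 change -0.54 ± 0.08, adjusted p = 0.0105), and the call was lost without control replicate 2. Reads of SRSF1 may be shared with AC015813.2, a protein-coding row that overlaps it on the same strand. That row held 12.5% of the SRSF1 level and was not called (log2 change 0.03, limma adjusted p = 0.934). SRSF4 (ENSG00000116350; chromosome 1, 29147743 to 29181987, minus strand) had 43.2, 42.8 and 43.3 TPM in irradiated libraries, against 64.3, 61.9 and 57.15 TPM in control libraries. The irradiated values were nearly equal and all below the controls (-0.49 ± 0.06, adjusted p = 0.00614). RF02271, a miscellaneous RNA row, overlaps SRSF4 on the same strand and may share its reads. That row held 26.03 TPM in control replicate 1, 5.38 TPM in irradiated replicate 2 and at most 1.36 TPM in the other libraries. It was not called (limma adjusted p = 0.606).

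SRSF2, also known as SC35, lay just outside the threshold. It had 271, 246 and 299.97 TPM in irradiated libraries, against 333, 326 and 323 TPM in control libraries. The groups did not overlap (log2 change -0.27, 95% interval -0.43 to -0.11, adjusted p = 0.0506), and 5 of the 16 alternatives called it lower. The most abundant SRSF gene, SRSF9, a short relative of SRSF1, had 331, 314 and 323 TPM in irradiated libraries, against 308, 349 and 364 TPM in control libraries. Here the groups overlapped, with an interval of -0.22 to 0.08 (adjusted p = 0.505). SRSF5, a relative of SRSF4, had 301, 285 and 294 TPM in irradiated libraries, against 289, 283 and 258 TPM in control libraries. The values overlapped (0.09, interval -0.03 to 0.21, adjusted p = 0.321). SRSF8, a close relative of SRSF2, had 20.35, 22.98 and 23.5 TPM in irradiated libraries, against 18.9, 19.98 and 22.99 TPM in control libraries. It had the highest log2 change of the 31 genes, 0.11, with overlap and an adjusted p of 0.493.

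None of the remaining 5 SRSF genes passed. The log2 change was -0.18 for SRSF3, the smallest SR protein, -0.17 for SRSF6, -0.08 for SRSF7, -0.05 for SRSF10, a repressor when dephosphorylated, and -0.23 for SRSF11 (limma adjusted p = 0.171, 0.163, 0.285, 0.770 and 0.266). SRSF6 was called lower after median-ratio scaling and once trends on GC content and length were removed. SRSF10 and SRSF11 had their low irradiated value in replicate 2, at 105 TPM for SRSF10, against 136 and 129.55 TPM in irradiated replicates 1 and 3.

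Summed over the family, the HNRNP genes held 6845, 6594 and 7379 TPM in irradiated libraries, against 8783, 8961 and 8414 TPM in control libraries. The mean was 20.4% lower, with no overlap. The SRSF sum was 1874, 1728 and 1941 TPM in irradiated libraries, against 2034, 2100.0 and 2020.5 TPM in control libraries, 9.94% lower in the mean. Since a TPM is a share of its library, the ratio of the sums is free of between-library scaling. The HNRNP sum was 3.65, 3.82 and 3.802 times the SRSF sum in irradiated libraries, against 4.32, 4.27 and 4.17 times in control libraries. These sums were not tested, as they are scores over a chosen list. In bulk RNA, fewer cells with a transcript and less of it per cell cannot be told apart.

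**Figure D2:**
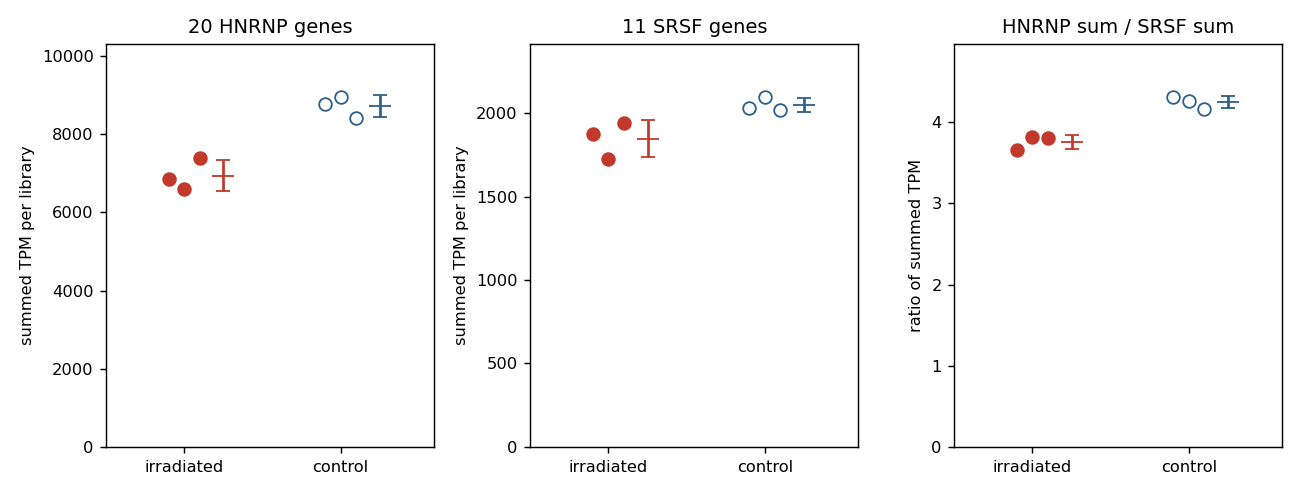
Points are libraries and the bars beside them mean ± SD (n = 3): summed TPM of the 20 HNRNP genes, summed TPM of the 11 SRSF genes, and the ratio of these sums, irradiated left of control. The ratio stands at 3.65 to 3.82 in irradiated and 4.17 to 4.32 in control libraries.

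Ratios between relatives within a library are likewise free of scaling. Of 25 pairs within the groups above and the SRSF groups 1/9, 2/8, 3/7 and 4/5/6, 14 had ratios that did not overlap between irradiated and control libraries and 11 had ratios that did. Many pairs share a gene and ratios of other gene pairs were not computed, so the count is a description. No pair passed after adjustment, and none could. With 3 against 3 libraries the exact permutation test used here gives no p below 0.1. The ratio of SRSF4 to SRSF5 was 0.143, 0.1499 and 0.147 in irradiated libraries, against 0.222, 0.219 and 0.222 in control libraries. That of SRSF1 to SRSF9 was 0.378, 0.347 and 0.418 in irradiated libraries, against 0.594, 0.525 and 0.4695 in control libraries. HNRNPD stood at 1.115, 1.158 and 1.101 times HNRNPDL in irradiated libraries, against 1.359, 1.402 and 1.334 times in control libraries. These 3 ratios were lower in each irradiated library than in any control library. HNRNPH2 over HNRNPH3 went the other way, with 0.417, 0.325 and 0.359 in irradiated libraries, against 0.225, 0.2115 and 0.2696 in control libraries. Each of these 4 gave p = 0.1 by a two-sided exact permutation test, the smallest that 3 against 3 libraries can give (adjusted p = 0.179 over the 25 pairs). Among the pairs that overlapped, HNRNPA0 over HNRNPA1, at 0.0276 to 0.0302 in irradiated and 0.0279 to 0.0311 in control libraries, and HNRNPF over HNRNPH1 and SRSF3 over SRSF7 overlapped too.

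Abundant genes as a whole were called lower more often than others. Of the 1420 tested genes with a mean of at least 100 TPM, 15.6% were lower and 8.24% higher. Of the 16 HNRNP genes at that level 14 were lower, and of the 8 SRSF genes 1 was. Among the members under 100 TPM, 2 of 4 HNRNP genes and 1 of 3 SRSF genes were lower. Over all tested genes, at any level, 4.07% were lower.

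**Figure D3:**
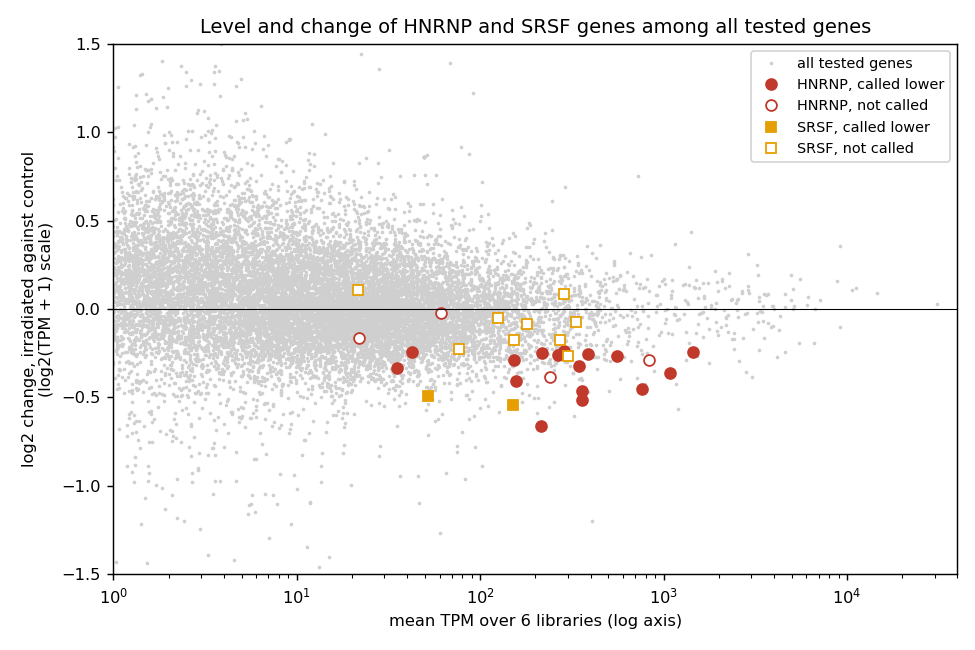
Mean TPM over the 6 libraries (log axis) against the log2 change for all 14621 tested genes in grey, with HNRNP genes as circles and SRSF genes as squares, filled where called lower; 49 genes lie beyond the y axis, more than 1.5 from 0. HNRNP genes lie below 0 from 21.9 to 1450 TPM. Of the 11 SRSF genes, 9 lie below 0, and SRSF5 and SRSF8, not called, lie above it. Among all tested genes 45.1% lie below 0.

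Short promoter motifs were counted as a description, with no test. RefSeq windows on GRCh38.p14, the hg38 assembly, from 250 bases before to 50 bases after each start were found for 29 of 31 genes, with HNRNPA1 and SRSF2 unmatched. CCAAT, searched like all motifs here on both strands, was present for 17 of 19 HNRNP genes (89.5%) and 2 of 10 SRSF genes (20.0%), against 43.4% of tested genes with a window and 39.7% of all genes with one. Counted per window, it was in 63.3% of the 30 HNRNP windows, 23.1% of the 13 SRSF windows and 34.8% of tested genes' windows. HNRNPD and HNRNPM, the HNRNP genes without it, were both called lower, and SRSF3 and SRSF8, the SRSF genes with it, were not called. The E-box CACGTG was present for 7 HNRNP genes (36.8%), for none of the SRSF genes, for 12.7% of tested genes and for 8.77% of all genes. The GC box GGGCGG was present for 84.2%, 40.0%, 77.3% and 48.3% of HNRNP, SRSF, tested and all genes. TATAAA was present for 15.8%, 30.0%, 8.47% and 14.0%, and CCGGAA for 26.3%, 20.0%, 35.2% and 20.1% of these sets. TTTCGCGC or TTTGGCGC was in no member's window, and in 2.55% of tested and 1.40% of all genes. Each motif was searched on its own, so matches of different motifs may overlap. A match describes the letters of a window and was not tested against the expression change.

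Windows are shown for the HNRNP gene with the largest fall (HNRNPH3, chr10:68331443-68331742, plus strand; of its 3 RefSeq starts the one nearest the GENCODE start), an abundant HNRNP gene called in every alternative, with 3 CCAAT matches (HNRNPC, chr14:21269393-21269692, minus strand), the HNRNP gene with the smallest change (HNRNPH2, chrX:101407972-101408271, plus strand) and both SRSF genes that fell (SRSF1, chr17:58007197-58007496, and SRSF4, chr1:29181851-29182150, minus strand). They run 5′ to 3′ on the strand of the gene, and capitals mark the CCAAT motif on either strand and the E-box.
HNRNPH3: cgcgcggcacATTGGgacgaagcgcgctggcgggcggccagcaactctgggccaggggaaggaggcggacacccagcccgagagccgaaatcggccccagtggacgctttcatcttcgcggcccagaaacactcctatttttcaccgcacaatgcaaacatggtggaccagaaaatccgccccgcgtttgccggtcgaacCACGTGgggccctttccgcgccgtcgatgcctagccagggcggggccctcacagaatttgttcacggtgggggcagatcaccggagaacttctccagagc
HNRNPC: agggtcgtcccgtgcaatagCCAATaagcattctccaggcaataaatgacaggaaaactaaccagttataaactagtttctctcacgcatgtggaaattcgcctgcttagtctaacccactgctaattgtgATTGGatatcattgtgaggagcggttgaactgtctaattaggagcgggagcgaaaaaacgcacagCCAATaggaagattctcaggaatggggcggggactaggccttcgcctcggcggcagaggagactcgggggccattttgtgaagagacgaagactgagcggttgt
HNRNPH2: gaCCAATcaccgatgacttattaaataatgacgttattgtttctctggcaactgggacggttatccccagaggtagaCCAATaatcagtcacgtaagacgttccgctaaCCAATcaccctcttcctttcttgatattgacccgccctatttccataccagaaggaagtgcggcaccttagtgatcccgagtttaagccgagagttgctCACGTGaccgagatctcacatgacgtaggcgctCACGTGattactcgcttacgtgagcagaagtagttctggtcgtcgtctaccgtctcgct
SRSF1: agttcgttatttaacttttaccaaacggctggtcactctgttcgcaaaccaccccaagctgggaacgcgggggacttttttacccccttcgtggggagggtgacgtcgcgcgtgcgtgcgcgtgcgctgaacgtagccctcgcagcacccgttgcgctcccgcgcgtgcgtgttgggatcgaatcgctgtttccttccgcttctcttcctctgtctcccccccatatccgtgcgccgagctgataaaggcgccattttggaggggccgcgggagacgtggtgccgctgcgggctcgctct
SRSF4: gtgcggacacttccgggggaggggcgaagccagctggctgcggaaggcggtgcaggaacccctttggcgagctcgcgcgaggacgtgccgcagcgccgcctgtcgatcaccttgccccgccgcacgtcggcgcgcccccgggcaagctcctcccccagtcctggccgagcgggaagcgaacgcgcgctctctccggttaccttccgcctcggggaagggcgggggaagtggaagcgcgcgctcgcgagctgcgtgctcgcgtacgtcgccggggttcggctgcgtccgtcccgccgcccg
HNRNPH3 and HNRNPH2 both carry CCAAT and E-box matches, and HNRNPH3 alone of them was called, and neither SRSF window holds any of these letters.

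Of the members, 9 start within 1000 bases of a protein-coding gene on the other strand, and of these neighbours 1 fell and 2 rose. HNRNPA2B1 fell, while its head-to-head neighbour CBX3, a heterochromatin protein gene, had 155, 143 and 151 TPM in irradiated libraries, against 162, 163 and 159 TPM in control libraries. CBX3 did not pass (log2 change -0.11 ± 0.04, adjusted p = 0.155). For HNRNPA1 the neighbour CBX5, another heterochromatin protein gene, changed by -0.05 ± 0.08 (adjusted p = 0.722), and for HNRNPK the neighbour RMI1 changed by -0.12 ± 0.12 (adjusted p = 0.575). HNRNPDL and its neighbour ENOPH1, an enzyme gene of methionine salvage, both fell (ENOPH1 -0.28 ± 0.06, adjusted p = 0.0375). Next to members that were not called, GLA beside HNRNPH2 (0.39 ± 0.05, adjusted p = 0.00950) and DYNLL1 beside SRSF9 (0.29 ± 0.04, adjusted p = 0.00705) rose. TTC9C beside HNRNPUL2, GEMIN6 beside SRSF7 and LRRC40 beside SRSF11 did not pass (adjusted p = 0.285, 0.845 and 0.442). Member and neighbour were not tested against each other.

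**Figure D4:**
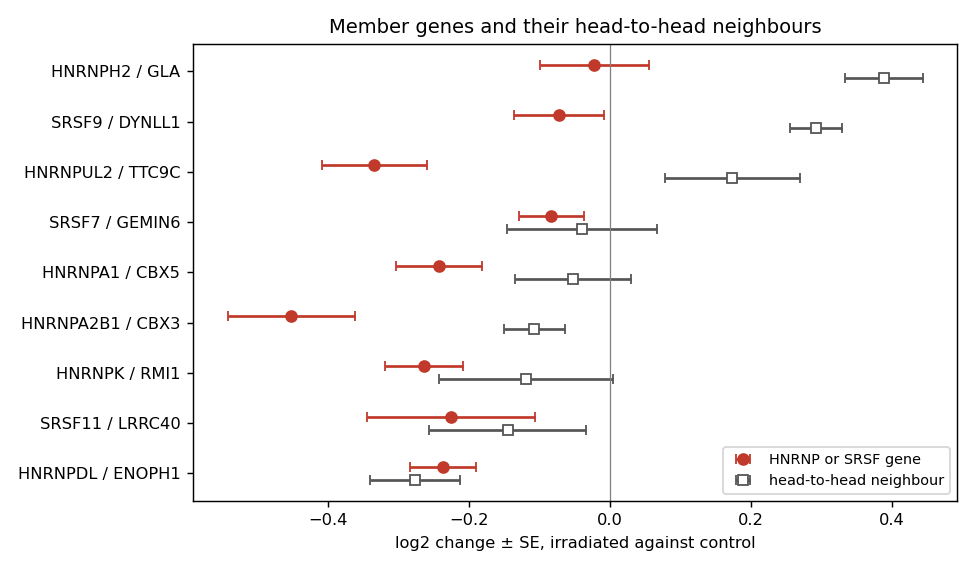
For each of the 9 pairs, the log2 change ± SE (n = 3 per group) of the member gene (filled circle) and of the protein-coding gene that starts within 1000 bases on the other strand (open square). The bars of HNRNPDL and ENOPH1 overlap at about -0.24 and -0.28, while GLA and DYNLL1 lie right of 0, at 0.39 and 0.29.

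Annotation and read sharing bear on these values. In GENCODE 29, each of the 11 SRSF genes has 1 to 6 transcripts marked for nonsense-mediated decay. At least 1 such transcript is listed for 13 of 20 HNRNP genes, with up to 9 per gene. The same holds for 44.2% of 12141 tested protein-coding genes, at any number of such transcripts. The table sums transcripts per gene, so a shift between coding and decaying forms is not visible in it. Strand is not given in the sources used here, and 13 members overlap another tested gene, in 11 of 16 cases on the opposite strand. Such partners held 20.3% of the member's TPM for CBX3 with HNRNPA2B1 and 18.3% for TGFB1 with HNRNPUL1. Of the 16 partners 2 fell with a member that fell, both on the opposite strand: NFE2L3 with HNRNPA2B1 (-0.38, adjusted p = 0.0145) and COX20 with HNRNPU (-0.27, adjusted p = 0.0315). They held 6% and 8.56% of the member's level. TGFB1 (0.42, adjusted p = 0.00705) and MFSD11 with SRSF2 (0.62, adjusted p = 0.0123; 3.65% of the SRSF2 level) rose, and the remaining partners were not called. The part of shared reads in the members' values was not tested. Processed pseudogenes are common for these families: 135 rows carry a member's symbol with a pseudogene suffix, 75 of them derived from HNRNPA1. Of these 135 rows, 75 were at 0 in all libraries and 6 were tested, with none called. Together they held 19.85 to 23.3 TPM in irradiated and 20.1 to 26.8 TPM in control libraries. The most abundant were HNRNPA1P48, at 5.32 to 8.14 TPM in irradiated and 6.16 to 8.25 TPM in control libraries, and HNRNPCP1, at 1.78 to 4.04 TPM in irradiated and 2.47 to 4.67 TPM in control libraries. The HNRNPA1 copies together amounted to 0.990% of the HNRNPA1 level.

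Further lists of splicing genes were read beside the members, and whether they differ from them was not tested. Over all tested genes 4.07% fell and 6.53% rose. Among those with a mean of at least 100 TPM, 15.6% fell and 8.24% rose. The lists were not split by level. Of 20 hnRNP-type RNA-binding protein genes with other symbols, 7 fell and 1 rose (median log2 change -0.24). PCBP2, a poly(C)-binding protein gene, had 302, 296 and 326 TPM in irradiated libraries, against 410.25, 398 and 410.3 TPM in control libraries (-0.40 ± 0.05, adjusted p = 0.00614). PTBP1, the polypyrimidine tract binding repressor, had 197, 189 and 199.7 TPM in irradiated libraries, against 254, 254 and 255 TPM in control libraries (-0.38 ± 0.04, adjusted p = 0.00375). For both genes the groups were far apart. SYNCRIP (-0.35, adjusted p = 0.0259) and PCBP1 (-0.32, adjusted p = 0.00662) also fell, and PCBP4, named after its value was seen, was the gene that rose (0.30, adjusted p = 0.0202).

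At an unadjusted p under 0.05, at least 4070 of all 14621 tested genes passed, counting both directions. Of 15 tested SR-related genes, 2 fell and none rose, with 10 lower and none higher at that cut (median -0.18). These were TRA2B, a splicing activator (-0.44, adjusted p = 0.00703), and LUC7L2, a U1 snRNP-associated factor (-0.29, adjusted p = 0.0360). SRSF12, of the same list, did not reach the level for testing. Of 10 tested genes of SR protein kinases and nuclear importers, none was called, with 2 lower and none higher at an unadjusted p under 0.05 (median -0.12). The most abundant were TNPO1, an importin (interval of the log2 change -0.69 to 0.07), and SRPK1, the main cytoplasmic SR protein kinase (-0.21 to 0.22). Of 42 core spliceosome genes, 12 fell and 1 rose (median -0.12). Among all tested genes 4.07% fell and 6.53% rose, and among those with a mean of at least 100 TPM 15.6% fell. SNRPD3, an Sm core protein gene, had 53.1, 47.1 and 65.99 TPM in irradiated libraries, against 106, 133 and 89.35 TPM in control libraries (-0.96 ± 0.16, adjusted p = 0.0167). Its level varied within groups, but the groups did not overlap. DDX46, a U2 snRNP helicase gene (-0.60, adjusted p = 0.0262), SNRPD1 (-0.43, adjusted p = 0.0231) and SNRPA of the U1 snRNP (-0.41, adjusted p = 0.00740) fell as well, and SF3B5, named after its value was seen, rose (0.22, adjusted p = 0.0357).

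**Figure D5:**
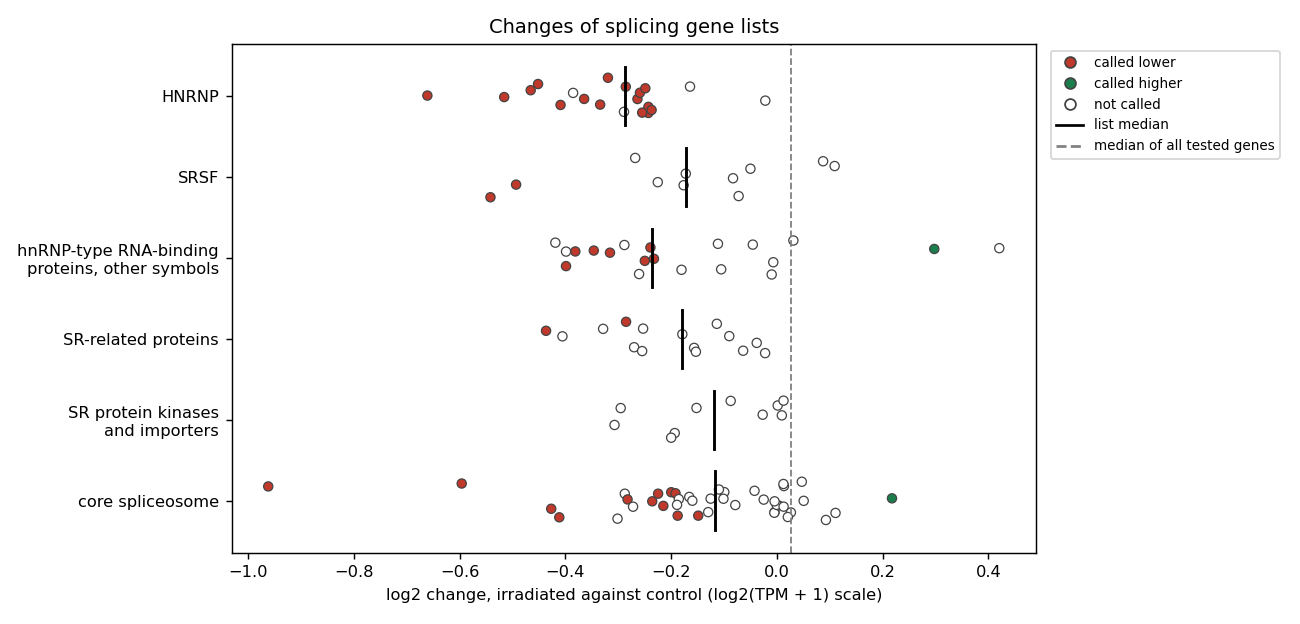
Each point is the log2 change of 1 tested gene, coloured by its call, with the list median as a solid line and the median of all tested genes (0.03) as a dashed line. The medians are -0.29 for HNRNP, -0.17 for SRSF, -0.24 for other hnRNP-type genes, -0.18 for SR-related genes, -0.12 for kinases and importers and -0.12 for the core spliceosome.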

How the data were processed

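The authors deposited gene-level TPM values for 6 libraries; TPM divides by transcript length and library total, so read depth is unknown and the number of libraries limits precision. Libraries were made with a TruSeq kit from total RNA, per the labels' protocols. The submitters' processing notes name HISAT2, StringTie, RSEM and hg38, without versions or roles. Groups were taken from sample titles. Rows with at least 1 TPM in at least 3 libraries were kept (14621), transformed to log2(TPM + 1), a scale that understates changes of low genes, and compared with limma 3.58.1 in R 4.3.3 (eBayes with trend, two-sided, Benjamini-Hochberg, threshold 0.05). Gene coordinates, overlaps and transcript types came from GENCODE 29 (hg38), and promoters from RefSeq.

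The members and lists were chosen with earlier results of these data known. By rule, values per library are given for called members, the 3 most abundant of each family and its largest rise and fall; each further list is represented by up to 4 called genes, or the 2 most abundant. At most 0.479% of tested rows had equal values in any 2 libraries of a group. Same-numbered libraries deviated from their group means with correlations of 0.03, -0.06 and -0.03, and were not paired. The 16 alternatives changed the pseudocount (0.1), the filter (none, or 5 TPM), the scaling (median-ratio, quantile, totals without mitochondrially encoded genes) and eBayes (no trend, robust), removed trends on GC and length (97.4% of tested rows), added the replicate block, or left out 1 library.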

Additional observations from a re-analysis of the deposited data

How the results depend on the processing

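No HNRNP or SRSF gene was called higher in any of 16 alternatives. The counts of all genes called, HNRNP genes lower, other listed splicing genes lower and other listed splicing genes higher were 497, 10, 8 and 1 with no filter, 993, 8, 7 and 1 with eBayes without trend, and 362, 8, 7 and 0 with the replicate block, against 1550, 16, 21 and 2 as reported. The replicate block left both SRSF calls in place; the numbers did not pair the libraries. SRSF genes lower, other genes lower and other genes higher were 4, 33 and 0 after median-ratio scaling and 4, 37 and 0 after the GC and length correction, which called 16 and 15 HNRNP genes, HNRNPA0 (-0.1582) being lost under the GC and length correction. These scalings also turned the balance over all genes, to 706 higher and 1034 lower and to 728 higher and 1218 lower, against 955 higher and 595 lower. With 1 library left out, all genes called ranged from 306 to 1390, HNRNP genes lower from 7 to 13, SRSF genes lower from 1 to 3, other genes lower from 6 to 19 and other genes higher from 0 to 1; fewer libraries give such fits less power. HNRNPH2 changed sign without control replicate 3 (0.0077) and without irradiated replicate 2 (0.05999), with values from -0.0726 to 0.05999 over the libraries left out. SRSF10 changed sign without irradiated replicate 2 (0.06199; range -0.1243 to 0.06199). Neither was called in any fit. Over the alternatives the HNRNP median was -0.338 to -0.257 and the SRSF median -0.222 to -0.0871, where the median of all genes was -0.0179 to 0.0637. The cause of these shifts was not tested.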
